A study of Mus musculus with 4 samples.

Results

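The data compared here are the liver transcript profiles of male wild-type mice after 11 weeks on a high-fat diet and after 11 weeks on a normal diet. The comparison used 2 of the 4 arrays of the study, chosen by their labels, with 1 array for each diet. The wild-type high-fat sample came from mice given 60.3% of calories as fat, and the wild-type normal-diet sample from mice given 18% of calories as fat, from 29 to 40 weeks of age. The other 2 arrays held liver RNA of male catalase knockout mice, which lack a peroxisomal enzyme that splits hydrogen peroxide, on the same high-fat and normal diets over the same ages. The labels give no strain, no description of the deleted allele, no hour of collection and no number of animals behind a sample. With 1 array per diet no value has a replicate and no test was made. A difference between the arrays may therefore belong to the diet, to the animals or to the RNA samples, which cannot be told apart.

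RNA was labelled with Cy3 and hybridised to a 1-colour Agilent mouse oligonucleotide array. Each value is a scaled signal, the background-subtracted spot intensity set so that the 75th percentile of each array's probes is 1000. Signals of different probes are not comparable, so each gene was set only against itself. A difference is log2 of high-fat over normal diet, and ± gives the scanner's own error of that difference, which covers spot measurement and not the spread between animals. The words rose and fell are kept for genes that differed at least 2-fold. Where only 1 of the arrays had the probe well above background, the size is a bound, written as at least N-fold.

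Liver takes up dietary fatty acids, burns them in mitochondria and peroxisomes, stores them as triglyceride and exports them in lipoproteins. Fatty acids activate the nuclear receptor PPARalpha, which induces genes of fat oxidation, while the factor SREBP2 induces sterol synthesis genes when cell sterol is low. ATF4 induces amino acid synthesis genes when amino acids are scarce or protein folding is disturbed. Insulin, growth hormone and the circadian clock each set a further layer of rhythmic or nutritional control on hepatocyte genes.

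Promoter windows are shown for 3 genes that changed and that are classical members of these programmes. The windows are from RefSeq on build GRCm38.p6 and run from 250 bases before to 50 bases after the transcript start, and capitals mark the motif match. Hmgcs1 encodes the cytosolic HMG-CoA synthase of sterol synthesis (chr13:119690101-119690400, plus strand), and the capitals are a match to TCACNCCAC, a sterol response motif, that starts at position -137. Asns encodes asparagine synthetase (chr6:7693160-7693459, minus strand), and the capitals are a match to TGATGNAAN, a motif for ATF4 with C/EBP, that starts at position -23. Ciart encodes a repressor of the circadian clock (chr3:95882179-95882478, minus strand), and the capitals are 3 matches to the E-box CACGTG, bound by the clock activators, at positions -116, -58 and -44.
Hmgcs1: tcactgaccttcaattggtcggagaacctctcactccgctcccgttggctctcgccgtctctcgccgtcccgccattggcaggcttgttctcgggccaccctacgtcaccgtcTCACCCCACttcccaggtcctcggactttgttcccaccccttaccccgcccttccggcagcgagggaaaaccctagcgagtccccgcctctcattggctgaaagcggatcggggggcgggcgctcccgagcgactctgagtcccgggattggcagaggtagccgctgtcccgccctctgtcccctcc
Asns: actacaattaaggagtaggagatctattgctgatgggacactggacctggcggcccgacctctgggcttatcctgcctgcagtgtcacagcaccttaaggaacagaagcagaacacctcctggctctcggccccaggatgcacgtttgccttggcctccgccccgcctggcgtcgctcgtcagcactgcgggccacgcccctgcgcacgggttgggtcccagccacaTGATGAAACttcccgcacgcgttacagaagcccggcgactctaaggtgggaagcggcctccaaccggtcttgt
Ciart: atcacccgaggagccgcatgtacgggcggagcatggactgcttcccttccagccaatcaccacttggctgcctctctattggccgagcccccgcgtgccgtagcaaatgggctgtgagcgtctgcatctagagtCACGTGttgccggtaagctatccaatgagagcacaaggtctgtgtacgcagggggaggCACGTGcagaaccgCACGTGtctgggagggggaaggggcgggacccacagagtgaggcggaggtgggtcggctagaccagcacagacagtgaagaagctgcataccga
Both strands were searched. A gene was counted if any of its windows held the motif. Over all 27025 genes with a window, TCACNCCAC was held by 1.44%, TGATGNAAN by 4.5% and CACGTG by 8.09%. Among the 16 sterol genes that fell, 11 had a window and 1 of these held TCACNCCAC, the gene shown. Of the 3 changed ATF4 targets with a window 2 held TGATGNAAN, Asns and Vldlr. Of the 3 changed clock genes 1 held CACGTG and 0 held the D-box TTATGNAA, a motif found in 3.99% of genes. A match describes the letters in the window and is not evidence of a bound site.

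Most genes kept a similar signal on both diets. Of 14636 genes well above background on at least 1 array, 261 rose (1.78%), 337 fell (2.3%), and so 598 changed (4.09%). Of these, 105 increases and 152 decreases rest on a bound. Among the 13735 genes measured on both arrays, 91.5% differed by less than 1.5-fold, the median log2 difference was -0.024 and the middle 90% lay between -0.58 and 0.49. Divided by mean signal into 3 classes of about equal size, 75 rose and 99 fell among the 4578 dimmest genes, against 32 and 47 among the 4579 brightest. A further probe was measured on both arrays for 51 changed genes, and it also moved 2-fold the same way for 30 of them and had the same sign for 45. The excess of decreases depends on the scaling, since median scaling gave 304 increases and 280 decreases. Of the changed genes, 116 were members of the 64 gene lists described here, which hold 2001 genes on the array. The shares of 1.78%, 2.3% and 4.09% are those to set beside the count given for each list.

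**Figure D1:**
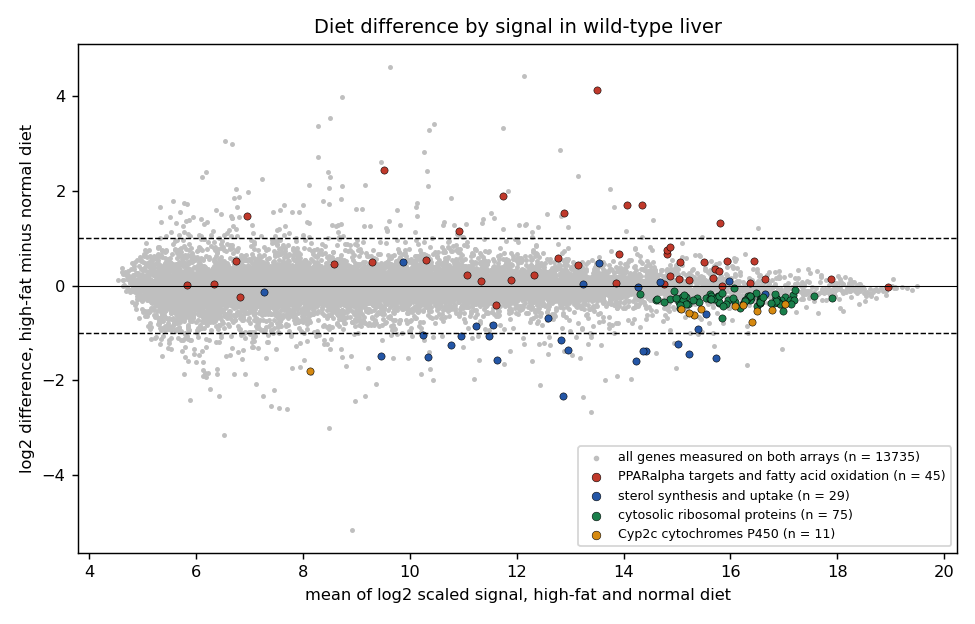
Log2 difference (high-fat minus normal diet) of each gene in wild-type liver against the mean of its log2 scaled signal on both arrays. Grey points are the 13735 genes measured on both arrays, coloured points are members of 4 gene lists, and dashed lines mark 2-fold. The 75 cytosolic ribosomal protein genes all lie just below 0 at high signal, the sterol genes reach further down, and the PPARalpha targets lie mostly above 0.

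The arrays carried the markers of the labelled tissue. The 25 hepatocyte markers on the array were well above background on both arrays, and their summed scaled signal was 4979000 on high-fat diet and 5204000 on normal diet. Macrophage markers summed to 94950 on high-fat diet and 82100 on normal diet, lymphocyte markers to 48930 on high-fat diet and 54580 on normal diet, and endothelial markers to 70750 on high-fat diet and 69500 on normal diet. Neutrophil markers summed to 76620 on high-fat diet and 64440 on normal diet and stellate cell and matrix genes to 283400 on high-fat diet and 281900 on normal diet. Bile duct markers summed to 4655 on high-fat diet and 3895 on normal diet, of which Krt23 alone gave 2694 on high-fat diet and 627.2 on normal diet. In the lymphocyte sum, Cd4 alone gave 40500 on high-fat diet and 44970 on normal diet. All these sums add probes of different sensitivity and are led by the brightest. In whole tissue, fewer cells of a type and less RNA per cell cannot be told apart. Cat itself had 27000 on high-fat diet and 29710 on normal diet, a difference of -0.14 ± 0.20.

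Sterol synthesis and uptake had the lowest median of the 64 lists. Decreases past 2-fold were seen for 16 of 29 measured genes and increases for 0, and the median difference was -1.05. The decreases included early and late steps of the route. Hmgcs1 had 23270 on high-fat diet and 63540 on normal diet, and fell by 1.45 ± 0.20. Pmvk, the phosphomevalonate kinase, had 13710 on high-fat diet and 35460 on normal diet, and fell by 1.37 ± 0.20, with -1.42 on its other probe. Fdps, which makes farnesyl pyrophosphate, had 32020 on high-fat diet and 92200 on normal diet and fell by 1.53 ± 0.20. Among the later steps, Lss fell by 1.25, Cyp51 by 1.499 and Nsdhl by 1.57. Single members stood outside the shift. Acat2, which joins acetyl-CoA units at the start of the route, had 26950 on high-fat diet and 25580 on normal diet, a difference of 0.07 ± 0.20. Srebf2, which encodes SREBP2, differed by -0.14 ± 0.22 on its brightest probe and by 0.25 on the other. Dhcr7 and Mvd were among the genes that fell but came to less than 2-fold under median scaling, with -0.96 for both, and under another background correction, with -0.998 for Dhcr7 and -0.992 for Mvd.

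Fat oxidation genes lay on the other side. Of 46 PPARalpha targets, oxidation and ketone genes above background 10 rose and 0 fell, and 40 of the 45 measured on both arrays were positive, with a median of 0.43. The increases included fatty acid hydroxylases and acyl-CoA thioesterases. Vnn1, a pantetheinase, had 6568 on high-fat diet and 1784 on normal diet, and rose by 1.88 ± 0.20. The Cyp4a10 signal was 37690 on high-fat diet and 11590 on normal diet, a rise of 1.70 ± 0.20, and Cyp4a31 and Cyp4a32, near-identical copies whose probes may read each other's transcripts, rose by 1.69 and 1.52. Further probes gave 1.09 and 1.77 for Cyp4a10, and 0.36 and 1.89 for Cyp4a31. In contrast the carnitine transferase gene Cpt1a, read by 10 spots, had 36140 on high-fat diet and 22940 on normal diet, a difference of 0.66 ± 0.07. Acadm, the medium-chain acyl-CoA dehydrogenase, differed by 0.35 ± 0.20, Etfdh, which passes its electrons on, by 0.11 ± 0.20, and Ppara itself by 0.60 ± 0.20. All 4 were positive but below 2-fold.

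Lipid storage was described by 22 measured genes typical of fat-laden cells. Their median was 0.70, and 8 of them rose while 0 fell. Mogat1, which makes diacylglycerol from monoacylglycerol, had 880 on high-fat diet and 204.7 on normal diet and rose by 2.10 ± 0.21. G0s2, an inhibitor of the lipase ATGL, had 7407 on high-fat diet and 3399 on normal diet and rose by 1.12 ± 0.20. Fabp4, a fatty acid carrier of adipocytes and macrophages, had 4278 on high-fat diet and 1622 on normal diet and rose by 1.40 ± 0.20. Of the genes that define adipose tissue, Adipoq, Lep and Plin1 were not well above background on either array, whereas Retn had 60.99 on high-fat diet and 89.12 on normal diet. Pparg, the adipogenic receptor, differed by 0.64 ± 0.07 and Plin2, the common droplet coat of hepatocytes, by 0.23 ± 0.20. The list ranged from -0.86 for Lipe, the hormone-sensitive lipase, to 3.40 for Cidea, a droplet fusion factor.

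**Figure D2:**
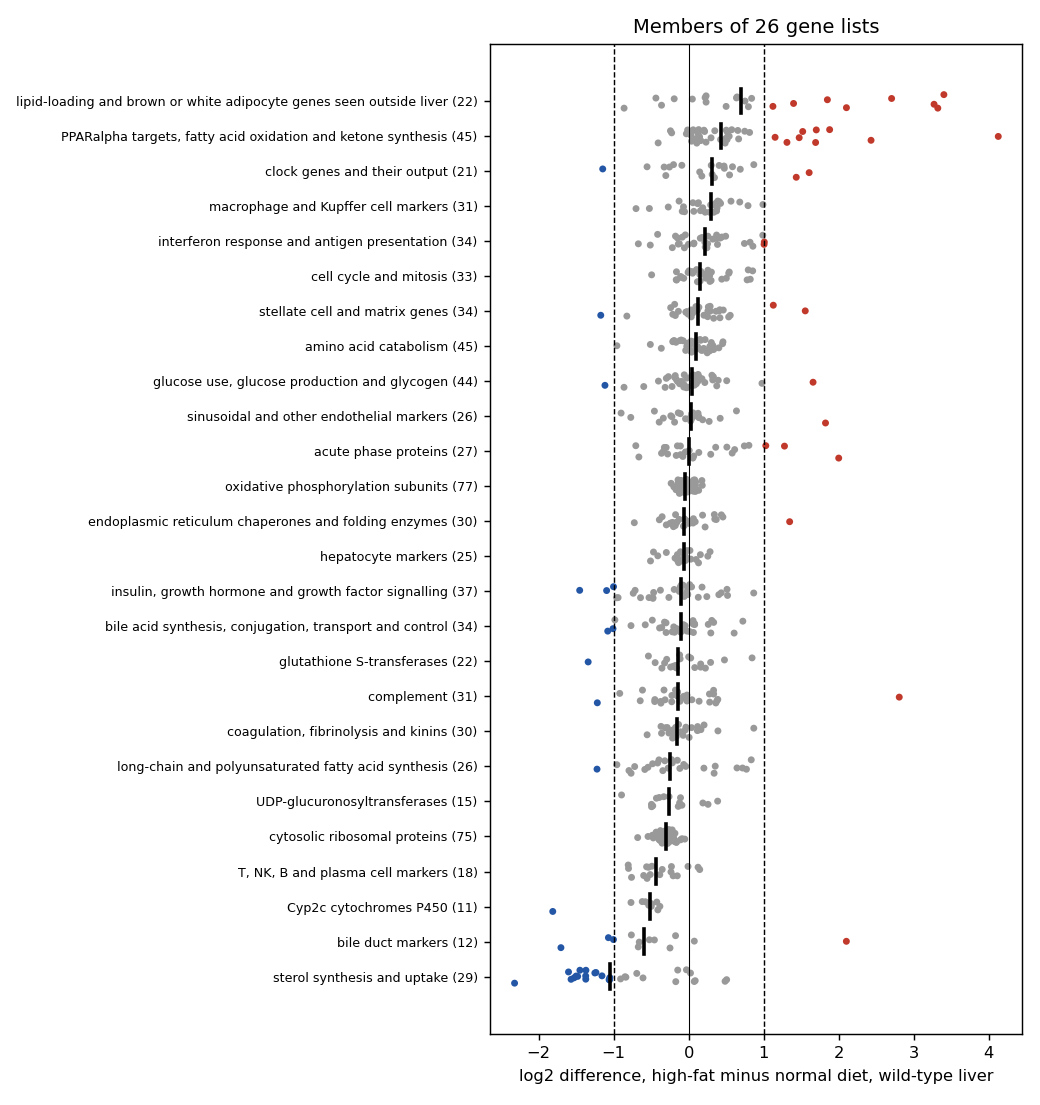
Log2 difference (high-fat minus normal diet, wild type) of each gene measured on both arrays in 26 gene lists, ordered by median, with the number of genes in brackets. Red points rose, blue points fell, grey points did neither, black bars are medians and dashed lines mark 2-fold. The lipid storage list has the highest median, 0.70, and the sterol list the lowest, -1.05.

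Fatty acid synthesis and chain modification separated into parts. The 26 genes of long-chain and polyunsaturated fatty acid synthesis measured on both arrays had a median of -0.25, and 1 of them fell. Positive values were found for 7 of the 26, among them the desaturase genes Fads1 and Fads2 and the elongase genes Elovl5 and Elovl2, which make polyunsaturated fatty acids. Fads1 had 17830 on high-fat diet and 10840 on normal diet (0.72 ± 0.20). Fads2 had 2382 on high-fat diet and 1335 on normal diet (0.83 ± 0.20), and Elovl5 had 54680 on high-fat diet and 34980 on normal diet (0.65 ± 0.20). Elovl2 differed by 0.35 ± 0.20, and 0 of the 26 rose past 2-fold. Fasn, the fatty acid synthase, had 3307 on high-fat diet and 4957 on normal diet, a difference of -0.58 ± 0.20, although Srebf1, which encodes its activator SREBP1, differed by 0.77 ± 0.20. Elovl3, an elongase of saturated chains, had 3813 on high-fat diet and 8887 on normal diet and fell by 1.22 ± 0.20. Of 46 phospholipid, sphingolipid and glycerolipid genes only Mogat1 changed. Chka, the first enzyme of phosphatidylcholine synthesis, differed by -0.96 ± 0.20 on its brightest probe and by -0.83 and -0.36 on the others.

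Apolipoprotein genes had similar signals on both diets. The median over 30 measured genes was -0.021, with 2 increases and 0 decreases past 2-fold. Apoa4, a component of chylomicrons and triglyceride-rich particles, had 20100 on high-fat diet and 4062 on normal diet and rose by 2.31 ± 0.20. Apob, the structural protein of very-low-density lipoprotein, differed by -0.11 ± 0.20, Apoe by -0.02 ± 0.07, Apoc3 by -0.03 ± 0.20 and Mttp, which loads lipid onto Apob, by -0.15 ± 0.20. These 4 genes of particle structure and assembly lay within the scanner error of no difference.

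Glucose handling genes changed at about the share of all genes. Of 44 measured genes of glucose use, glucose production and glycogen 1 rose and 1 fell, beside 4.09% changed over all genes. The median was 0.041. G6pc, the phosphatase that releases glucose, had 31850 on high-fat diet and 39150 on normal diet (-0.30 ± 0.20), and Pck1, which commits carbon to glucose production, had 183900 on high-fat diet and 171600 on normal diet (0.10 ± 0.20). The subunits that direct a phosphatase to glycogen differed among themselves. Ppp1r3g had 1553 on high-fat diet and 3363 on normal diet and fell by 1.11 ± 0.20, Ppp1r3c had 3782 on high-fat diet and 1920 on normal diet (0.98 ± 0.20), and Ppp1r3b differed by -0.16 ± 0.20. Slc2a4, the insulin-responsive glucose transporter of muscle and fat, lay outside the list and had 327.7 on high-fat diet and 69.47 on normal diet, a rise of 2.24 ± 0.07 over 10 spots per array. The hepatic transporter gene Slc2a2 differed by 0.04 ± 0.20.

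Genes of hormone action and secreted factors included several decreases. The 37 insulin, growth hormone and growth factor genes had a median of -0.096 and included 3 decreases and 0 increases past 2-fold. Over all genes 2.3% fell and 1.78% rose. Enho, which encodes the secreted peptide adropin, had 3709 on high-fat diet and 10150 on normal diet and fell by 1.45 ± 0.20, with -1.52 on its other probe. Igfbp4 had 6085 on high-fat diet and 12980 on normal diet and fell by 1.09 ± 0.20. Igfbp1, a binding protein of insulin-like growth factors that insulin represses, had 27360 on high-fat diet and 54780 on normal diet and fell by 1.00 ± 0.20, just past 2-fold, and it came to -0.91 under median scaling and -0.86 under quantile normalization. Igfbp2 had 21570 on high-fat diet and 41380 on normal diet (-0.94 ± 0.20, and -0.95 on its other probe). Igfbp3 had the opposite sign, with 443.9 on high-fat diet and 243.2 on normal diet (0.87 ± 0.21), and Igf1 itself differed by -0.10 ± 0.20. The receptor substrate gene Irs2 had 5123 on high-fat diet and 8398 on normal diet (-0.71 ± 0.20) and the receptor gene Insr differed by -0.12 ± 0.20. Egfr, the epidermal growth factor receptor, differed by -0.74 ± 0.07 on its brightest probe and by -1.56 and -1.44 on the others.

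Activin subunit genes went in opposite directions. Inhbe, a liver-secreted subunit of activin E, had 5168 on high-fat diet and 2274 on normal diet and rose by 1.18 ± 0.20. Inhba, a subunit of activin A, had 484 on high-fat diet and 1405 on normal diet and fell by 1.54 ± 0.20, and Fst, which binds activins, differed by -0.88 ± 0.21. The 29 measured liver-secreted factors with metabolic roles had a median of -0.065, and included 2 increases and 4 decreases past 2-fold. Under median scaling the median was 0.03 and 2 fell, and 3 fell under quantile normalization, with the percentile over detected probes or with another background correction. Fgf21, a hormone induced by fasting and by PPARalpha, had 579.7 on high-fat diet and 132.2 on normal diet and rose by 2.13 ± 0.21. Angptl8, a feeding-induced inhibitor of lipoprotein lipase, had 7022 on high-fat diet and 13110 on normal diet (-0.90 ± 0.20). The abundant factors Ahsg, Selenop and Rbp4 differed by -0.04, -0.07 and -0.07.

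**Figure D3:**
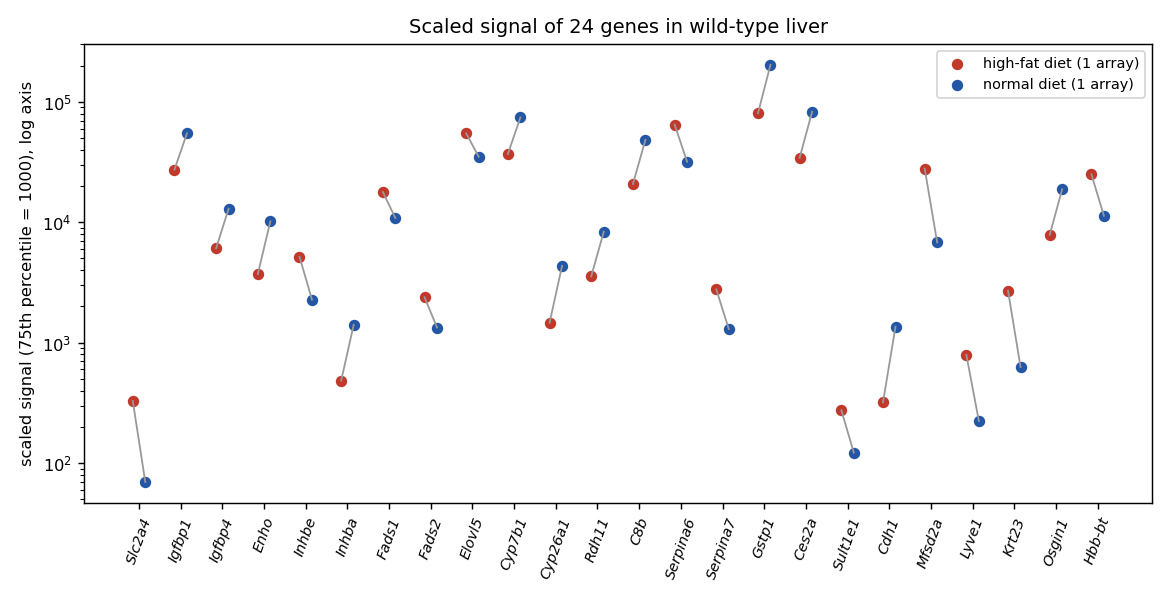
Scaled signal (75th percentile of each array set to 1000, log axis) of 24 genes in wild-type liver on high-fat diet (red, left of each pair) and normal diet (blue, right), 1 array each. Lines join the values of 1 gene, and genes are not comparable with one another. Slc2a4, Mfsd2a and Krt23 were higher on high-fat diet, and Enho, Gstp1, Cdh1 and Cyp26a1 lower.

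Amino acid metabolism held its level apart from a few genes. Among 45 amino acid catabolism genes and 13 urea cycle genes 0 changed, and the medians were 0.099 and -0.052. Hpd, of tyrosine breakdown, had 129400 on high-fat diet and 106100 on normal diet (0.29 ± 0.20), and Cps1, which opens the urea cycle, had 30650 on high-fat diet and 40740 on normal diet (-0.41 ± 0.20). In methionine, one-carbon and sulfur metabolism 1 of 35 rose and 1 fell. Csad, which makes the taurine precursor, had 4312 on high-fat diet and 22000 on normal diet and fell by 2.35 ± 0.20, against -0.09 ± 0.20 for Bhmt and -0.49 ± 0.20 for Cth. Mthfd1l, of the mitochondrial formate route, had 168.5 on high-fat diet and 60.48 on normal diet and rose by 1.48 ± 0.26, but by 0.75 with another background correction, which does not reach 2-fold.

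The ATF4 list did not move as a group. Of 38 genes above background 2 rose and 2 fell, and the median over the 36 measured on both arrays was -0.023. Asns, whose promoter is printed above, had 215 on high-fat diet and 1170 on normal diet and fell by 2.44 ± 0.21. Aldh1l2, a mitochondrial folate enzyme, was not well above background on high-fat diet and was at least 4.79-fold lower there. It was not well above background on either knockout array. The stress genes commonly read as ATF4 targets had other values. Trib3 had 3138 on high-fat diet and 3165 on normal diet (-0.01 ± 0.20), Chac1 differed by 0.56 ± 0.20 and Ddit3 by 0.33 ± 0.20. Vldlr, a receptor for triglyceride-rich lipoproteins, had 798.4 on high-fat diet and 122.4 on normal diet and rose by 2.71 ± 0.22, and Gadd45a, a growth arrest gene, rose by 1.17 ± 0.20. Of 30 endoplasmic reticulum chaperones and folding enzymes 1 rose, Derl3, by 1.35 ± 0.20, and the median was -0.056, with Hspa5 at 0.35 ± 0.20.

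Large complexes were narrow in spread. All 75 cytosolic ribosomal protein genes had a negative difference, from -0.68 for Rpl12 to -0.051 for Rps26, and none reached 2-fold. Their median was -0.30, beside -0.024 over all measured genes. It was -0.20 with 73 genes negative under median scaling and -0.16 with 72 negative under quantile normalization. The 77 mitochondrial ribosomal protein genes had a median of 0.0035 with 39 positive, and the 37 proteasome genes a median of -0.069. For the 77 oxidative phosphorylation subunits the median of -0.048 turned to 0.046 under median scaling and 0.078 under quantile normalization, so they have no direction here. These probes are bright, and ribosomal protein genes have many processed copies, so the part of cross-hybridisation in the values was not tested. Of 33 genes of pyruvate use and the citric acid cycle 0 changed, with a median of 0.047.

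**Figure D4:**
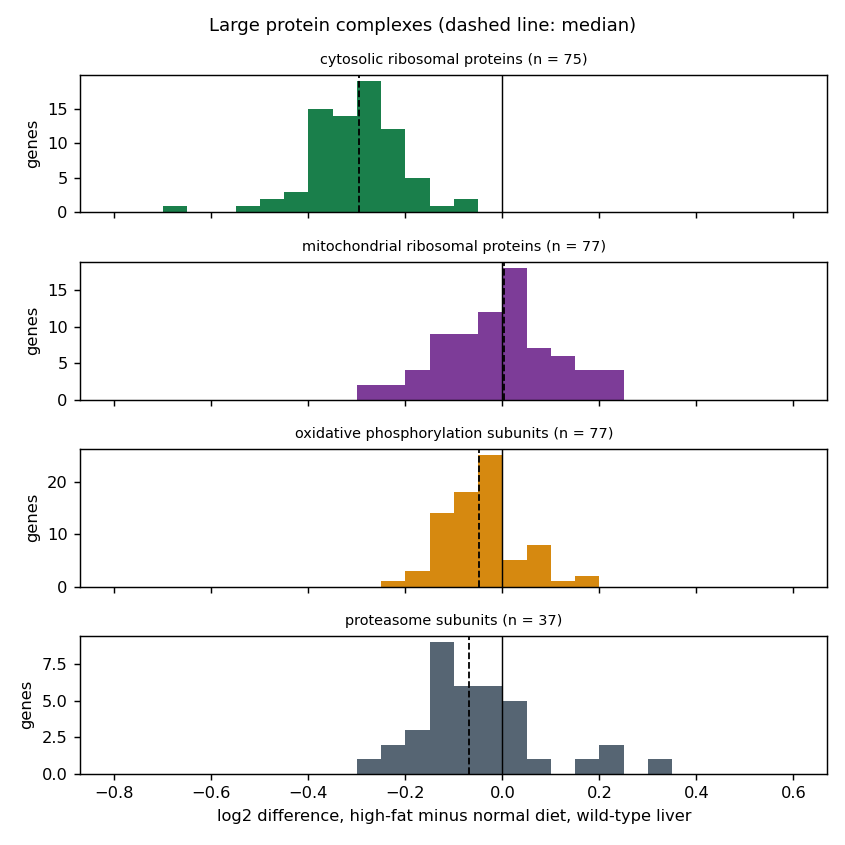
Number of genes by log2 difference (high-fat minus normal diet, wild type) for 4 protein complexes, in bins of 0.05, with the dashed line at the median and the solid line at 0. The cytosolic ribosomal proteins lie wholly below 0 with a median of -0.30, and the other 3 complexes straddle 0.

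Bile acid genes gave 2 decreases and 0 increases among 34 measured, with a median of -0.11, and 0 decreases under median scaling. The rate-limiting enzyme gene Cyp7a1 had 3880 on high-fat diet and 4054 on normal diet (-0.06 ± 0.20), and Cyp8b1, which sets the cholic acid share, had 4348 on high-fat diet and 4306 on normal diet (0.01 ± 0.20). Both genes of the classical route lay within the scanner error of no difference. Cyp7b1, the oxysterol hydroxylase of the alternative route, had 36910 on high-fat diet and 74210 on normal diet and fell by 1.01 ± 0.20, but came to -0.92 under median scaling, -0.84 under quantile normalization and -0.996 with another background correction. Slco1a1, a male-predominant organic anion transporter, had 4305 on high-fat diet and 9087 on normal diet and fell by 1.08 ± 0.20, or -0.99 under median scaling. The export pump gene Abcb11 had 45260 on high-fat diet and 67550 on normal diet (-0.58 ± 0.20).

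Retinoid handling included enzymes and a carrier of retinoids that fell. Of 29 genes above background 4 fell, 2 of them by a bound, and 0 rose, beside 2.3% and 1.78% over all genes. The median over the 27 measured on both arrays was 0.032. Cyp26a1, which hydroxylates retinoic acid and is induced by it, had 1462 on high-fat diet and 4340 on normal diet and fell by 1.57 ± 0.20. Rdh11, a retinol dehydrogenase, had 3555 on high-fat diet and 8331 on normal diet and fell by 1.23 ± 0.20. Dhrs9 and the carrier gene Crabp1 were well above background only on normal diet and were lower on high-fat diet by at least 4.22-fold for Dhrs9 and at least 4.97-fold for Crabp1. Neither gene was well above background on either knockout array, so these decreases rest on the wild-type normal-diet array alone. With another background correction the Dhrs9 difference was -1.24 and its bound did not reach 2-fold. Others stayed below 2-fold. Rbp4, the plasma carrier of retinol, differed by -0.07 ± 0.20, Lrat, which stores retinyl esters, by 0.42 ± 0.20 and Aldh1a1 by 0.17 ± 0.20.

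Drug and steroid metabolism genes split by family. All 11 measured Cyp2c genes had a negative difference, from -1.81 for Cyp2c55 to -0.38 for Cyp2c50, with a median of -0.52, and only Cyp2c55 fell by 2-fold. It had 150.4 on high-fat diet and 527.5 on normal diet. The bright members were close to each other, with Cyp2c29 at 76940 on high-fat diet and 111300 on normal diet (-0.53 ± 0.07). These genes are near copies and their probes may share transcripts, so they are not 11 separate readings. With the mean of all probes 1 of the 11 was positive. Cyp1a2, the aryl hydrocarbon receptor target, had 5468 on high-fat diet and 15680 on normal diet and fell by 1.52 ± 0.20. Of 15 UDP-glucuronosyltransferases 0 changed and 12 were negative, with a median of -0.26.

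Conjugating and hydrolysing enzymes included changes in both directions. Gstp1, an abundant glutathione S-transferase of male liver, had 80270 on high-fat diet and 203000 on normal diet and fell by 1.34 ± 0.20, with -1.64 on its other probe, while the list of 22 had a median of -0.14. The carboxylesterase gene Ces2a had 34340 on high-fat diet and 82800 on normal diet and fell by 1.27 ± 0.20, and Ces2b had 6722 on high-fat diet and 15740 on normal diet and fell by 1.23 ± 0.20. Ces2c fell by 1.02 ± 0.20, or -0.92 under median scaling and -0.88 under quantile normalization. The Ces1 genes measured on both arrays lay between -0.30 for Ces1f and 0.10 for Ces1g. Sult1e1, the estrogen sulfotransferase, had 274.4 on high-fat diet and 121.9 on normal diet and rose by 1.17 ± 0.22, but reached 0.71 with another background correction. Of 12 sulfotransferase genes above background 3 rose, and the others were Sult1c2 by 1.00 ± 0.20, or 0.997 with that correction, and Sult2a6, which was well above background only on high-fat diet and was at least 3.09-fold higher there, a bound that it did not keep with that correction or with the mean of its probes. Abcb1a, a drug efflux pump gene, had 331.9 on high-fat diet and 109.8 on normal diet and rose by 1.60 ± 0.23, or 0.94 with that correction, whereas its near copy Abcb1b had 113.3 on high-fat diet and 217.2 on normal diet (-0.94 ± 0.22). Of 40 NRF2 targets and antioxidant enzymes 1 fell and 0 rose, Osgin1, with 7873 on high-fat diet and 18820 on normal diet (-1.26 ± 0.20). Nqo1, the standard NRF2 reporter gene, differed by 0.97 ± 0.21. Under median scaling, quantile normalization or the mean of all probes 1 gene of this list rose.

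The 31 complement genes measured on both arrays had a median of -0.15, or -0.05 under median scaling and 0.0 under quantile normalization, and of 32 above background 2 rose and 1 fell. C8b, a subunit of the membrane attack complex, had 20800 on high-fat diet and 48340 on normal diet and fell by 1.22 ± 0.20. The other pore proteins did not reach 2-fold, with C6 at -0.92, C9 at -0.65, C8a at -0.45, Hc, which encodes C5, at -0.37 and C8g at -0.02, in a list of which 21 of 31 were negative. C3 differed by -0.12 ± 0.07. Cfd, the adipokine protease of the alternative pathway, had 3275 on high-fat diet and 467.6 on normal diet and rose by 2.81 ± 0.20. Of 30 coagulation genes 0 rose and 0 fell, and 21 of 30 were negative.

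Both hormone carriers of the serpin family rose. Serpina6, which encodes corticosteroid-binding globulin, had 64850 on high-fat diet and 31820 on normal diet and rose by 1.03 ± 0.20, with 1.07 on its other probe. Serpina7, which encodes thyroxine-binding globulin, had 2772 on high-fat diet and 1296 on normal diet and rose by 1.097 ± 0.20, or 0.999 with another background correction. Among the 41 serpins above background 2 rose and 2 fell, and the median was -0.12. The 27 acute phase genes had a median of 0.0079 and included 3 increases past 2-fold, while Orm1 had 35040 on high-fat diet and 57080 on normal diet (-0.70 ± 0.20) and Saa1 had 54670 on high-fat diet and 35720 on normal diet (0.61 ± 0.20). The acute phase genes thus differed in sign among themselves. In iron handling 3 of 39 rose and 0 fell, beside 1.78% and 2.3% over all genes. Those that rose were Hamp2, Steap4 and Bmper, the last by 1.04 ± 0.27 and by 0.40 with another background correction. Hmox1, which breaks down haem, had -0.39 ± 0.21 on its brightest probe and 2.84 on the other, so it has no settled direction.

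Clock genes had a median of 0.31 over 21 measured, or 0.13 with another background correction, and 2 of 22 above background rose and 1 fell. Ciart, whose 3 E-boxes are printed above, had 956.4 on high-fat diet and 314 on normal diet and rose by 1.61 ± 0.21. Usp2, a deubiquitinase with a strong daily rhythm, had 5055 on high-fat diet and 1869 on normal diet and rose by 1.44 ± 0.20. Nr1d1, the repressor REV-ERBalpha, had 826.4 on high-fat diet and 1827 on normal diet and fell by 1.145 ± 0.20. Arntl, the activator that Nr1d1 represses, differed by -0.55 ± 0.21, Per2 by 0.87 ± 0.21 and Dbp by 0.34 ± 0.20. The clock genes thus differed in sign among themselves. The hour at which each liver was taken is not given in the labels. The list of immediate early and heat shock genes held 37 measured members, with 4 decreases and 0 increases past 2-fold. Junb, a subunit of the AP-1 transcription factor, had 113.5 on high-fat diet and 286.5 on normal diet and fell by 1.34 ± 0.22. Ier2 fell by 1.07 ± 0.22, Egr1, a growth-factor-induced transcription factor, by 1.03 ± 0.20 and Nr4a1 by 1.01 ± 0.20. Under median scaling 1 fell, Junb, and with another background correction 1 fell, Egr1. The AP-1 genes Fos and Jun differed by -0.83 ± 0.07 for Fos and 0.69 ± 0.20 for Jun.

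Growth arrest genes included 2 increases and 1 decrease among 27. Cdkn1a, the cell cycle inhibitor p21, had 732.1 on high-fat diet and 175.6 on normal diet and rose by 2.06 ± 0.07 over 10 spots per array, but the mean of its 2 probes gave -1.53. The second probe was not well above background on both arrays. Gadd45b fell by 1.04 ± 0.21, or -0.95 under median scaling and -0.81 with another background correction, in the opposite direction from Gadd45a. Of 33 measured cell cycle genes 0 changed and 24 were positive, with a median of 0.15. Mki67, a proliferation marker, had 244.8 on high-fat diet and 142.6 on normal diet (0.78 ± 0.21, and 0.36 on its other probe) and Ccnd1 differed by 0.23 ± 0.20.

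Markers of cells other than hepatocytes differed by type. Macrophage markers were positive for 24 of 31 with a median of 0.29 and 0 past 2-fold, and Adgre1, the F4/80 antigen, differed by 0.38 ± 0.20 and Clec4f, a Kupffer cell lectin, by 0.37 ± 0.20. Under median or quantile scaling 1 macrophage marker rose. Lymphocyte markers were negative for 16 of 18, with a median of -0.44. The B cell receptor gene Cd79a was well above background only on normal diet and was at least 4.97-fold lower on high-fat diet. On both knockout arrays Cd79a was not well above background. Jchain, of plasma cells, differed by -0.56 ± 0.21. Bile duct markers had a median of -0.59 over 12 genes, and of 14 above background 3 fell and 1 rose. Tff3, a mucosal trefoil peptide, had 246.9 on high-fat diet and 803.5 on normal diet and fell by 1.70 ± 0.21, and Krt19 differed by -0.76 ± 0.23, whereas Epcam was not well above background on either array. Of the other bile duct genes that fell, Tspan8 came to -0.98 under median scaling and -0.45 with another background correction, and Prom1 to -0.91 under median scaling and 2.25 with the mean of all its probes. Krt23, a keratin that stressed hepatocytes also make, had 2694 on high-fat diet and 627.2 on normal diet and rose by 2.10 ± 0.20, whereas 10 of the 12 measured bile duct markers were negative.

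Endothelial and stromal markers were close to level. Of 26 endothelial markers 1 rose, Lyve1, a hyaluronan receptor of sinusoids, with 790.8 on high-fat diet and 223.3 on normal diet (1.82 ± 0.21). Stab2 and Clec4g, other sinusoidal markers, both differed by 0.03 ± 0.20. The stellate cell and matrix list had a median of 0.13 over 34 genes, and of 37 above background 2 rose and 1 fell. With another background correction 0 rose and 0 fell and the median was 0.07. Timp1, an inhibitor of matrix proteases, had 89.47 on high-fat diet and 30.45 on normal diet and rose by 1.55 ± 0.31, or 0.58 with that correction. Col1a1, a fibrillar collagen, rose by 1.13 ± 0.21, or 0.78 with that correction, and Mmp14, a membrane-bound matrix protease, fell by 1.17 ± 0.21, and came to -0.97 with it. Among interferon genes Ifit1 and Ifi44 rose by 1.01 each, and by 0.77 and 0.71 with that correction, and Isg15 differed by 0.99 ± 0.20, while H2-Aa, of antigen presentation, differed by -0.22 ± 0.20. The interferon list had a median of 0.22 over 34.

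Globin transcripts were higher on the high-fat array, while another red cell transcript was lower. Hba-a1 had 38690 on high-fat diet and 14840 on normal diet and rose by 1.38 ± 0.20, and Hbb-bt had 25060 on high-fat diet and 11310 on normal diet and rose by 1.15 ± 0.20. All 4 globin genes on the list rose, and their probes may read each other's transcripts. Alas2, the erythroid haem enzyme, had 13810 on high-fat diet and 19050 on normal diet (-0.46 ± 0.20). On the same diets in knockout liver Hba-a1 differed by -0.38 and Hba-a2 by -0.47. Other genes on the list of adipose, pancreas, muscle and red cell markers differed in level. The muscle genes Acta1 and Ckm were not well above background on either array. The insulin gene Ins2 was, with 263.6 on high-fat diet and 282.9 on normal diet (-0.10 ± 0.21). Car3, the brightest named here, had 287300 on high-fat diet and 340400 on normal diet (-0.25 ± 0.20). It was also bright in knockout liver, with 216100 on high-fat diet and 372600 on normal diet. The list summed to 525400 on high-fat diet and 456600 on normal diet. Most of each sum was Car3, so the sums do not measure carried-over tissue. Of its 13 members above background 6 rose, the globin genes, Cfd and Fabp4. The part of blood content in the other differences was not tested.

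Other named genes with large differences are given singly. Mfsd2a, a transporter of lysophosphatidylcholine, had 27910 on high-fat diet and 6801 on normal diet and rose by 2.04 ± 0.20. Osbpl3, an oxysterol-binding protein relative, had 818.1 on high-fat diet and 154.8 on normal diet and rose by 2.40 ± 0.21, with 2.51 on its other probe. Slc16a5, a monocarboxylate transporter, rose by 2.42 ± 0.20, with 1.08 on its other probe. Cdh1, the epithelial adhesion protein E-cadherin, had 319.4 on high-fat diet and 1356 on normal diet and fell by 2.09 ± 0.07. Over its 10 spots the spread (log2 SD) was 0.092 on the high-fat array and 0.053 on the normal-diet array. In knockout liver Cdh1 had 200.8 on high-fat diet and 391.9 on normal diet, so its wild-type normal-diet value stood above the others. The fatty acid carrier gene Fabp5 had 4263 on high-fat diet and 27120 on normal diet and fell by 2.67 ± 0.20, opposite to Fabp4. In knockout liver Fabp5 had 4718 on high-fat diet and 6903 on normal diet, so here too the wild-type normal-diet value stood above the others. Meg3, an imprinted long noncoding RNA, fell by 2.21 ± 0.23. Tpm2, a tropomyosin of the actin cytoskeleton, had 1864 on high-fat diet and 676.1 on normal diet and rose by 1.46 ± 0.20, with 1.57 on its other probe. Chmp4b fell by 2.09 ± 0.20 on its brightest probe and differed by -0.55 and -0.47 on its others, so its size depends on the probe. The brightest probe was low on the wild-type high-fat array alone, with 2674 there and 11370 on wild-type normal diet. In knockout liver it had 13000 on high-fat diet and 11350 on normal diet.

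The same diets in knockout liver share no array with the wild-type arrays, and so the diet differences can be set side by side without a shared sample. In knockout liver 629 of 14905 genes rose (4.22%) and 245 fell (1.64%), so that 874 changed (5.86%). The sterol list median was -1.05 in wild type and -0.83 in knockout, and the ribosomal protein median was -0.30 in wild type and -0.21 in knockout. For lipid storage genes the medians were 0.70 in wild type and 0.48 in knockout. Other lists differed more, with no test of the difference. PPARalpha targets had a median of 0.43 in wild type and 0.030 in knockout, and macrophage markers 0.29 in wild type and 1.35 in knockout, where 23 rose. Amino acid catabolism had a median of 0.099 in wild type and -0.47 in knockout, and the Cyp2c genes -0.52 in wild type and -1.20 in knockout, where 8 fell. Single genes of the wild-type account took other values in knockout liver. The difference was 2.24 in wild type and -0.38 in knockout for Slc2a4, 2.04 in wild type and 0.25 in knockout for Mfsd2a, and 1.38 in wild type and -0.38 in knockout for Hba-a1.

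**Figure D5:**
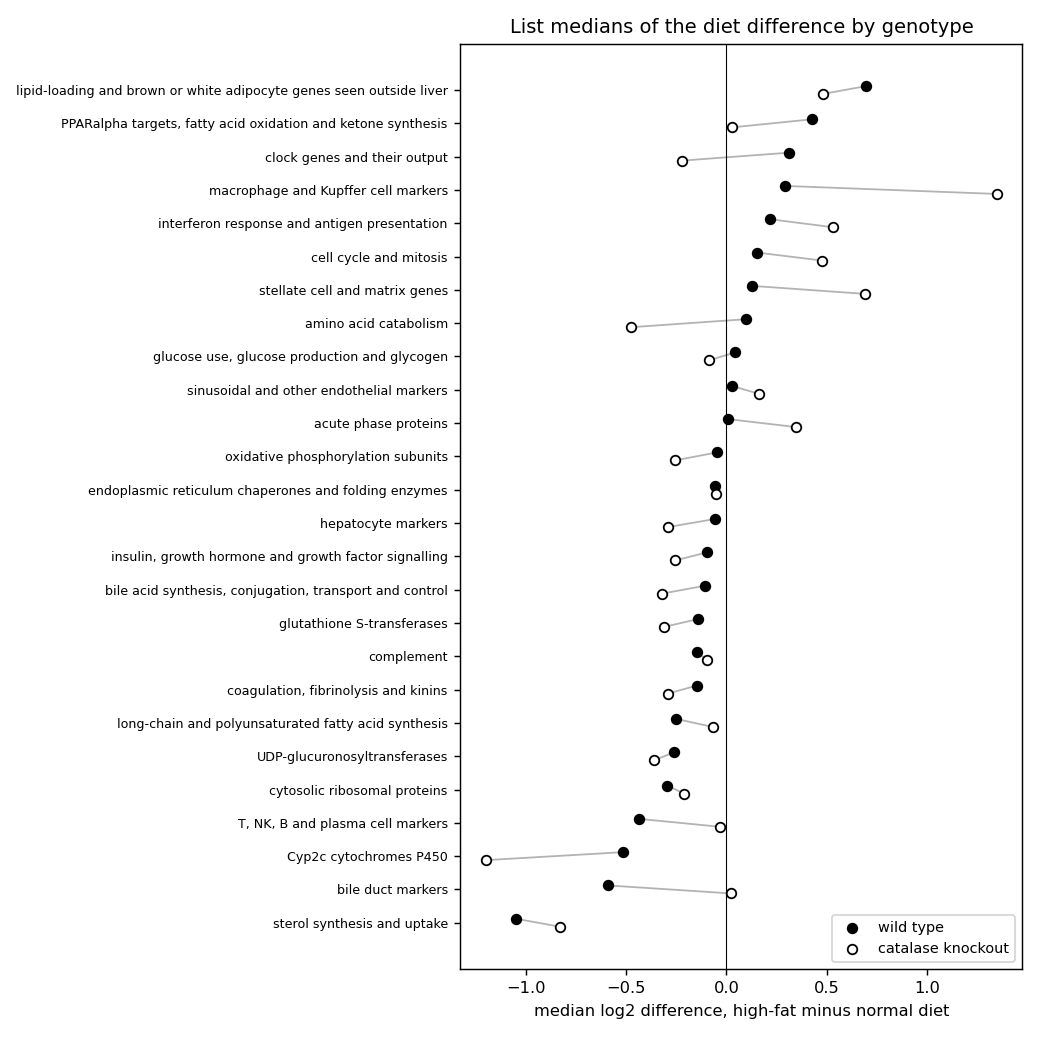
Median log2 difference (high-fat minus normal diet) of 26 gene lists in wild type (filled circles) and catalase knockout (open circles), 1 array per diet and genotype, with lines joining the medians of 1 list. The sterol, ribosomal protein and lipid storage lists have the same sign in both genotypes, the amino acid catabolism list has opposite signs, and the macrophage list is farther from 0 in the knockout.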

How the data were processed

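Liver RNA of 4 samples was measured on 4 arrays of 1 slide in 1 scan, so no batch could be fitted. The deposited scanner files give the intensity of each spot and a processed signal, from which background is subtracted, as written by Feature Extraction 11.5.1.1, per the file headers. The authors extracted values with GeneSpring, per the series' design text. The deposited value table of the series holds intensity on a linear scale, within 1% of the processed signal for 99.7% of probes on every array, with column medians of 75.87 (wild type, high-fat), 79.87 (wild type, normal diet), 89.16 (knockout, high-fat) and 72.38 (knockout, normal diet). It is not centred and, being 1-colour, has no direction.

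Control spots and spots with an outlier flag were left out, unless every spot of a probe was flagged (98 to 186 flagged spots per array, 0 saturated). Spots of a probe were averaged as log2 and each array was scaled to its 75th percentile over 39429 probes, of which 23760 to 25184 were well above background. Accessions matched to a RefSeq table of GRCm38.p6 named 27508 probes, while 11921 stayed unnamed, of which 144 rose and 211 fell. The brightest probe stood for each of 20886 genes, 5512 of which had several. Changed means 2-fold with both arrays well above background, or a bound against the higher of the lowest signal well above background and the dim probe's own. The median scanner error was 0.20 on the log2 scale. In simulated data over 13735 genes the rule called 96% of 2.5-fold, 100% of 4-fold and 2% of 1.5-fold changes, and 3 of 13535 unchanged genes. The simulation added only scanner error to normal-diet values, with no spread between animals or RNA samples and no bounds. It therefore does not give the rate of false calls in the diet comparison.

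Named genes were starred members of a list, the up to 8 largest changes of a list, the genes ranked 1 to 30 each way, list members included, among those that kept 2-fold under median, quantile and normexp settings, and the 10 largest bounds each way outside the lists. A few list members were named as the lowest or highest of their list or as comparators. Some items are not reported here. The lists and genes were chosen with earlier results of these data known. Alternatives were median scaling, quantile normalization, a percentile over probes detected on all arrays, normexp (offset 50) with limma 3.58.1 in R 4.3.3, the deposited value table, no bounds, no filter, the mean of all probes and thresholds of 1.5-fold and 3-fold. The files hold no mean signal, so normexp used the median signal. The remaining computation used Python 3.11.15, pandas 2.3.3, numpy 2.4.6 and matplotlib 3.10.9.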

Additional observations from a re-analysis of the deposited data

Results flagged for a closer look

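Of the genes that rose in wild-type liver, 207 were above background on at least 1 knockout array. Of these, 65 also rose in knockout liver and 7 fell. Of the genes that fell in wild-type liver, 238 were above background there, and 55 also fell and 10 rose. Over all genes in knockout liver 4.22% rose and 1.64% fell. Among the largest changes in wild-type liver, 3 genes measured on all 4 arrays went past 2-fold in opposite directions in the genotypes. Hamp2, a hepcidin family gene, differed by 2.86 in wild type and by -1.92 in knockout. Bst1, a cell surface enzyme that makes cyclic ADP-ribose, differed by 3.05 in wild type and by -1.67 in knockout. Its lower signals were dim, with 32.45 on wild-type normal diet and 33.97 on knockout high-fat diet. The lowest signals well above background were 21.4 on the former array and 19.1 on the latter. Xlr4a, an X-linked imprinted gene, differed by -2.32 in wild type and by 2.00 in knockout. The difference between the genotypes was not tested, since each value rests on 1 array per diet.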

How the results depend on the processing

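No paired analysis was possible because each group has 1 array, and leaving out an array leaves no comparison. The 261 increases and 337 decreases became 304 and 280 under median scaling, 293 and 293 under quantile normalization, 263 and 335 with the percentile over detected probes, 261 and 337 from the deposited value table, and 306 and 482 with the mean of all probes. Larger moves came from normexp on the median signal, with 121 and 152, from leaving out bounds, with 156 and 185, from no filter on dim probes, with 624 and 927, and from thresholds of 1.5-fold, with 651 and 948, and 3-fold, with 115 and 134. Fewer calls without bounds and at 3-fold, and more without a filter and at 1.5-fold, follow from how those settings are built. Normexp adds an offset of 50 to each spot, which by construction draws the differences of dim probes toward no difference. How much of the smaller counts comes from the offset was not tested.

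Median scaling moved all genes by 0.093 on the log2 scale. Of 170 named genes that changed, 168 kept their call with the percentile over detected probes, 170 from the deposited value table, 166 with the mean of all probes, 164 under quantile normalization, 157 under median scaling and 141 with normexp. With the mean of all probes 2 turned round, Cdkn1a to -1.53 and Prom1 to 2.25, and the cause was not tested. Of the 64 gene lists, the counts of increases and decreases were the same for 64 from the deposited value table, 61 with the percentile over detected probes, 53 under quantile normalization, 48 under median scaling, 46 with the mean of all probes and 44 with normexp. The list median took the other sign for 21 lists under median scaling, 17 under quantile normalization, 4 with normexp and 2 with the mean of all probes. Signal over background limits the precision of dim probes. Among the 4578 dimmest genes 75 rose and 99 fell, against 32 and 47 among the 4579 brightest.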
